A study of Homo sapiens with 3 samples.

Results

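The 9 genes described here are the 4 adenosine receptors (ADORA1, ADORA2A, ADORA2B, ADORA3), the receptor for vasoactive intestinal peptide VIPR1, the cAMP-degrading phosphodiesterases PDE4A, PDE4B and PDE4D, and the cAMP-responsive transcription factor CREM. They were chosen by gene name, with earlier results of these arrays known, because imiquimod (IMQ) is a known antagonist of adenosine receptors besides being an agonist of Toll-like receptor 7. Every transcript probe that the array design named after 1 of them was read, which gave 16 of the 58201 transcript probes. Since the members were picked with their values in view, the differences below are a description and carry no test.

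RNA was measured in THP-1 cells, a human monocytic leukemia line that was turned into macrophages with 100 ng/ml phorbol 12-myristate 13-acetate (PMA) for 24 to 36 h and rested overnight in fresh medium. The 3 conditions, each sampled at 4 h by its title, were Ctrl without IMQ, IMQ, and IMQ+X. The treatment description names no agent besides IMQ and DMD, a dimethoxylated methylbenzenediol from the fungus Antrodia cinnamomea that was given before IMQ, so X is read here as DMD. All cells, Ctrl included, had received PMA, and the line is a cultured leukemia rather than primary macrophages. There was 1 one-color array per condition, all 3 on 1 slide, so no spread between cultures could be measured and no p-value is given. No array received DMD alone.

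Adenosine receptors sit at the cell surface and are coupled to G proteins. ADORA2A and ADORA2B raise cAMP through Gs and adenylyl cyclase, whereas ADORA1 and ADORA3 lower it through Gi. cAMP activates protein kinase A, which phosphorylates CREB, a factor that binds cAMP response elements, and the PDE4 enzymes break cAMP down again. In macrophages, a rise in cAMP is known to dampen the production of tumor necrosis factor, and ADORA2A and PDE4B are established parts of that control.

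The probes behind the largest differences are shown by their first 30 bases out of 60, 5′ to 3′, with the hg19 position that the array files give. They are printed because each gene was read through these short windows only. Whether a window lies in a coding exon or a UTR was not assigned here.
PDE4B, chr1:66839789-66839848, plus strand: ggaaacactacatttgctcacagatgattc
VIPR1, chr3:42578746-42578805, plus strand: tctgataggaatgtgaaagcacggactctt
ADORA2A probe 2, chr22:24837485-24837544, plus strand: gggaaggagatctttatctttctggttggc
ADORA3, chr1:112042730-112042789, minus strand: ctatcatcaactgcatcatctactttaatg
PDE4D probe 1, chr5:58264927-58264986, minus strand: gcctggtacacagtaggttcttaatatgtg
CREM probe 2, chr10:35501242-35501301, plus strand: agattgtattgctgtccttgaatgccatag

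As CREB acts through the cAMP response element, the promoters of the members were searched for its palindrome TGACGTCA, which reads the same on both strands. RefSeq promoters on GRCh38.p14, each running from 250 bases before to 50 bases after a start, were at hand for 8 of the 9 genes and 31 starts, and ADORA2A was not among them. The palindrome was found in 3 of the 31 windows, against 1.85% of the 35116 promoters of all genes. The windows with a match were a start of PDE4A and 2 neighboring starts of CREM that share 1 site. Below, 30 bases around each site are printed with the palindrome in capitals.
CREM, chr10:35195841-35195870, plus strand: gagctgcacatTGACGTCAgctccgagtca
PDE4A, chr19:10416759-10416788, plus strand: cgtcagtccgcTGACGTCAcgccccaggag
The shorter core TGACG, searched on both strands and contained in every palindrome, was present in 7 of the 31 windows (22.6%) and in 24.6% of all promoters. A match is a run of letters and not a measured binding site. The 6 PDE4B windows held neither form.

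The labelled cell type, a monocyte line, was checked by its markers. The 8 of 10 listed macrophage and monocyte markers found by name (CD14, ITGAM, CSF1R, SPI1, CD163, MRC1, FCGR1A and AIF1) were well above background on all 3 arrays. Their summed normalized intensity was 327133 in Ctrl, 243814 in IMQ and 222096 in IMQ+X, and the part of that decline in the results below was not tested. Most of the sum came from CSF1R, by far the brightest, at log2 values of 17.78, 17.40 and 17.23. The markers did not move alike, with log2 differences of IMQ against Ctrl from -1.22 for CD163 to 0.04 for SPI1. The T cell markers CD3D, CD3E and CD2 and the B cell marker MS4A1 were above background too, at log2 values from 6.38 to 8.39, so a positive mark on these arrays does not separate cell types. EPCAM and CEACAM8 were not above background on any array, but other markers of their lists were. Of 3 epithelial and keratinocyte markers, 2 were above background in Ctrl, 1 in IMQ and 2 in IMQ+X. On each array 1 of 2 neutrophil markers and 2 of 2 fibroblast markers were above background. The share of transcript probes well above background was 72.0% in Ctrl, 66.6% in IMQ and 71.9% in IMQ+X. As RNA came from whole cultures, fewer cells with a transcript and less transcript per cell cannot be told apart.

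After IMQ, the ADORA2A, PDE4A, PDE4B, PDE4D and CREM transcripts were higher than in Ctrl by at least 1 probe each, and ADORA3 and VIPR1 were lower. A difference of 2-fold or more was taken as a change. Of the 15 member probes that could be compared, 8 were higher and 2 were lower after IMQ. Among all 41104 probes compared, 4.31% were higher and 3.48% were lower. The median log2 difference of the member probes was 1.27, against -0.01 over all probes. Since the members were chosen with their differences in this contrast known, nothing is read from their share. The probes just inside the 2-fold limit were CREM probe 1 with a log2 difference of 1.27 and PDE4A probe 2 with 1.33, and the nearest outside was PDE4D probe 2 with 0.87. Of the 8 higher probes, PDE4A probe 2 and CREM probe 1 dropped under 2-fold without normalization between arrays and with spike-in scaling, and these and ADORA2A probe 1 did so with another background correction (normexp).

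**Figure D1:**
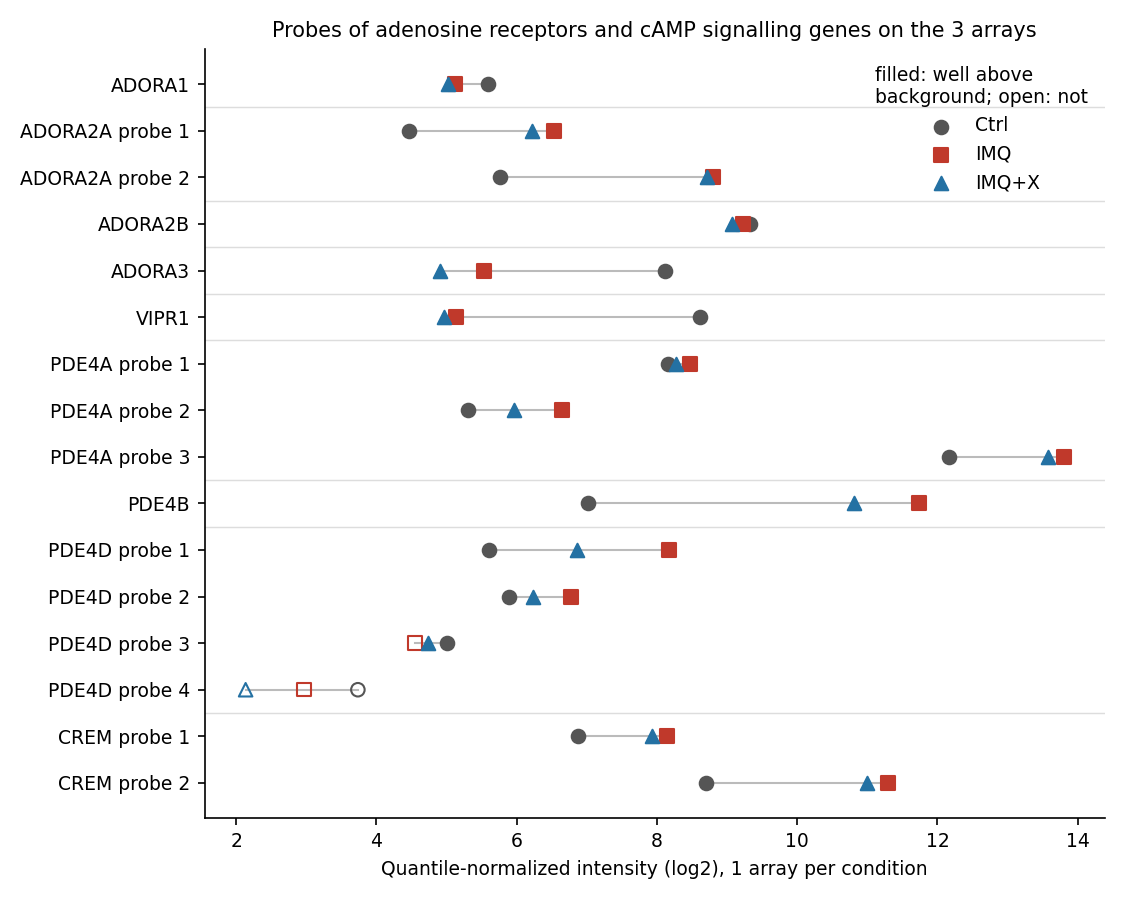
Quantile-normalized intensity (log2) of the 16 member probes in Ctrl, IMQ and IMQ+X, with filled symbols for probes well above background and open symbols for those that were not. PDE4B runs from 7.01 on the Ctrl array to 11.73 on the IMQ array, whereas VIPR1 and ADORA3 are at their highest on the Ctrl array. Values of different probes are not comparable with each other.

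Among the adenosine receptors, ADORA2A went up, ADORA3 went down, and the other two stayed within 2-fold. ADORA2A, the Gs-coupled receptor that restrains inflammatory cells, was read by 2 probes. Probe 2 read a log2 normalized intensity of 5.76 in Ctrl, 8.80 in IMQ and 8.71 in IMQ+X. The IMQ and IMQ+X arrays were both far above the Ctrl array, by 3.04 ± 0.21 (8.21-fold) for IMQ. The ± here and below is the technical SD of a difference, taken from 300 probes that are printed in 10 spots on each array, and it covers the noise between spots of like brightness but nothing between cultures or hybridizations. Few of those probes were dim. Over the 3 arrays, 13 readings lay at log2 values from 5 to 6, against 158 from 10 to 11, so the ± of dim probes is rough. Probe 1 of ADORA2A (chr22:24829457-24829516) was dimmer, at 4.46 in Ctrl, 6.54 in IMQ and 6.21 in IMQ+X. It showed the same order of arrays, with a difference of 2.08 ± 0.39 for IMQ against Ctrl. Over the other scalings and normexp this difference was smaller, from 0.78 to 1.92, and that of probe 2 ran from 2.11 to 3.02. The Ctrl reading of probe 1 lay near the lowest value marked well above background on that array, 4.04, so its fold is uncertain. The 2 probes of the antisense transcript ADORA2A-AS1 disagreed. The brighter differed by 0.05 between IMQ and Ctrl, whereas the other read 4.68 in Ctrl, 6.30 in IMQ and 5.95 in IMQ+X, a difference of 1.62 in the direction of ADORA2A. SPECC1L, the gene next to ADORA2A that forms a readthrough transcript with it, differed by -0.15 and -0.14 on its 2 probes after IMQ. How far transcripts of this locus share signal between probes was not tested.

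ADORA3, a Gi-coupled receptor, read 8.12 in Ctrl, 5.54 in IMQ and 4.90 in IMQ+X. Both IMQ arrays were low, and the log2 difference of IMQ against Ctrl was -2.59 ± 0.22 (-3.37 to -1.62 over the other scalings and normexp). The ADORA3 locus also carries TMIGD3, whose transcripts overlap those of ADORA3. The TMIGD3 probe read 9.91, 8.94 and 8.86 in Ctrl, IMQ and IMQ+X. It was lower on the same arrays by a smaller step of -0.97 (-1.57 to -0.86 over the other scalings and normexp), and how far either probe reads transcripts of the other gene is uncertain.

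ADORA2B, the low-affinity Gs-coupled receptor, read 9.32 in Ctrl, 9.23 in IMQ and 9.08 in IMQ+X. The 3 values lay close together, with -0.09 ± 0.08 for IMQ against Ctrl. ADORA1, a Gi-coupled receptor better known from brain and heart, read 5.60, 5.12 and 5.02 in Ctrl, IMQ and IMQ+X. The difference of -0.47 ± 0.33 for IMQ against Ctrl is that of a dim probe, and without normalization between arrays or with spike-in scaling (-1.29) it passed 2-fold in the same direction.

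VIPR1, the Gs-coupled receptor through which vasoactive intestinal peptide is known to restrain macrophages, had the largest fall of the members. The probe read 8.61 in Ctrl, 5.13 in IMQ and 4.97 in IMQ+X. The log2 difference of IMQ against Ctrl was -3.48 ± 0.27 (11.2-fold lower), which ranked 7 from the lowest of the 41104 probes compared. It ran from -4.26 to -2.22 over the other scalings and normexp. The IMQ reading lay near the lowest value marked well above background on that array, 4.57, so the fold is uncertain. VIP, the ligand of VIPR1, was dim, with 4.98 in Ctrl and 5.21 in IMQ+X and no value well above background in IMQ.

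PDE4B, the phosphodiesterase that is known to rise in monocytes on Toll-like receptor stimulation, showed the largest rise. It read 7.01 in Ctrl, 11.73 in IMQ and 10.81 in IMQ+X. The log2 difference of IMQ against Ctrl was 4.72 ± 0.14 (26.4-fold), which ranked 33 of the 41104 probes. Both IMQ arrays were high, and the IMQ+X array stood between the others and nearer to IMQ.

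The 3 PDE4A probes did not move alike. Probe 3 (chr19:10580226-10580285), the brightest, read 12.17 in Ctrl, 13.80 in IMQ and 13.58 in IMQ+X, a difference of 1.64 ± 0.06 for IMQ against Ctrl. Probe 2 (chr19:10577818-10577877) read 5.31, 6.64 and 5.97 in Ctrl, IMQ and IMQ+X, a difference of 1.33 ± 0.28. Probe 1 (chr19:10572615-10572674) was nearly level at 8.16, 8.48 and 8.27, a difference of 0.32 ± 0.10. Its sign turned under other scalings, with values from -0.30 to 0.30.

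PDE4D, which has many alternative starts, was read by 4 probes that also differed. Probe 1 read 5.61 in Ctrl, 8.17 in IMQ and 6.87 in IMQ+X, and the IMQ against Ctrl difference was 2.56 ± 0.22 (5.89-fold). Probe 2 (chr5:58270554-58270613) had the same order with 5.90, 6.77 and 6.23 in Ctrl, IMQ and IMQ+X, but its difference of 0.87 ± 0.25 stayed under 2-fold. Probe 3 (chr5:59064074-59064133) read 5.01 on the Ctrl array and 4.74 on the IMQ+X array and was not well above background on the IMQ array, which bounds its difference for IMQ against Ctrl at -0.44 (-1.28 with spike-in scaling). Probe 4 (chr5:59284034-59284093) was not well above background on any array and was not compared. The pair of probes with the lowest coordinates are, on this minus-strand gene, the ones nearest its 3′ end. Of this pair only probe 1 was past 2-fold, and probe 2 ran from 0.14 to 0.74 over the other scalings and normexp. Probes 3 and 4 were dim or not above background, so whether the part they read moved less cannot be told. PDE4C, the remaining gene of the subfamily, read 7.65, 6.91 and 7.44 in Ctrl, IMQ and IMQ+X and differed by -0.74 after IMQ (-1.45 to -0.55 over the other scalings and normexp).

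CREM, whose inducible short forms repress CREB targets, was read by 2 probes. Probe 2 read 8.70 in Ctrl, 11.29 in IMQ and 11.00 in IMQ+X, a difference of 2.59 ± 0.08 (6.02-fold) for IMQ against Ctrl. Probe 1, whose 60 bases span 207 bases of the genome (chr10:35467876-35468082) and thus cross a splice junction, read 6.87, 8.15 and 7.93 in Ctrl, IMQ and IMQ+X. Its difference was 1.27 ± 0.16, smaller but in the same direction. The spots of CREM were uneven, with a pixel SD above that of 99.0% of spots of like brightness for probe 1 on the IMQ array and 98.8% for probe 2 on the Ctrl array. Which of these values the unevenness touches was not tested. CUL2, the neighbor of CREM on chromosome 10, read 8.25, 8.64 and 8.60.

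With DMD given before IMQ, 1 of the PDE4D probes was more than 2-fold lower than after IMQ alone, PDE4B was lower by just under 2-fold, and the receptors stayed within 2-fold of their IMQ values. Of the 15 member probes compared between IMQ+X and IMQ, 0 were at least 2-fold higher and 1 was lower. Over all 40825 probes compared, 1.09% were higher and 1.31% were lower. The only member probe past 2-fold was PDE4D probe 1, at -1.30 ± 0.16 (2.47-fold lower), which ranked 234 from the lowest of the 40825 probes. With spike-in scaling and with normexp it fell short of 2-fold. PDE4B was the nearest outside with -0.92 ± 0.07 (1.90-fold lower). In this order followed PDE4A probe 2 with -0.67 ± 0.25, ADORA3 with -0.63 ± 0.36 and PDE4D probe 2 with -0.55 ± 0.24. All of these were smaller under every other scaling and normexp, so their size and order rest on the deposited scaling. PDE4A probe 2 ran from -0.44 to -0.20 there, ADORA3 from -0.32 to -0.07 and PDE4D probe 2 from -0.33 to -0.08. Spot evenness was low for PDE4D probe 1 on the IMQ+X array, where 95.7% of like spots were more even, and its part in the difference was not tested.

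**Figure D2:**
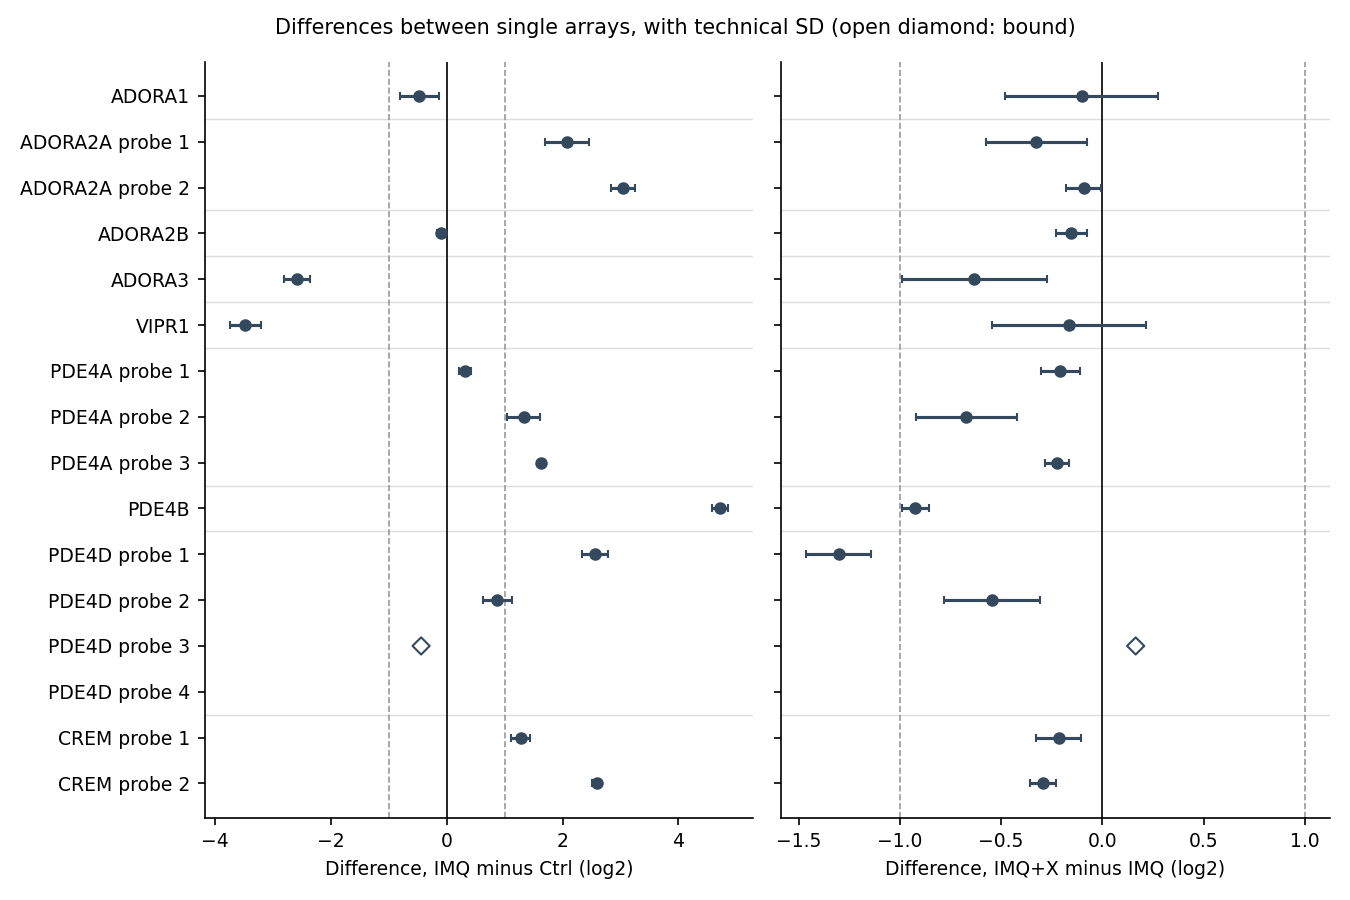
Log2 difference of each member probe for IMQ minus Ctrl (left) and IMQ+X minus IMQ (right), with bars for the technical SD, dashed lines at 2-fold and open diamonds where 1 array gave only a bound. On the right 1 probe, PDE4D probe 1 at -1.30, lies past the line, and PDE4B at -0.92 lies just inside it. The comparisons share the IMQ array, so noise on that array moves them in opposite directions.

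Small negative differences prevailed, since 14 of the 15 member probes were below 0 and their median was -0.23, against -0.01 over all probes. Nothing is read from that count, as the members were chosen with their values known. Of these probes, 8 were at least 2-fold higher than Ctrl on the IMQ array, which is subtracted here. That count rests on the scaling of the arrays, because with spike-in scaling ADORA1, ADORA2A (both probes), ADORA2B, VIPR1, PDE4A probe 1 and CREM probe 1 turned positive. ADORA1 and VIPR1 did so with 75th percentile scaling and without normalization too. ADORA1 was positive with normexp as well, so all of these settings gave it the other sign, from 0.02 to 0.46. PDE4D probe 3, with a bound of 0.16, was the 1 probe above 0 as reported. PDE4B kept its sign throughout, from -1.09 to -0.84 over the other scalings and background correction, and PDE4D probe 1 ran from -1.19 to -0.94. ADORA2A probe 2 differed by -0.09 ± 0.09, VIPR1 by -0.16 ± 0.38 and ADORA1 by -0.10 ± 0.38, sizes close to or under the technical SD. ADORA2A probe 1 differed by -0.33 ± 0.25 and ADORA2B by -0.15 ± 0.08. The CREM differences were -0.29 ± 0.07 on probe 2 and -0.22 ± 0.11 on probe 1, and those of PDE4A were -0.23 ± 0.06 on probe 3 and -0.21 ± 0.10 on probe 1.

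Against Ctrl, the IMQ+X array kept most of the pattern seen after IMQ. Of 15 member probes, 7 were higher and 2 were lower, while 3.09% of all 43689 probes compared were higher and 4.91% were lower. The log2 rise left on the IMQ+X array was 80.4% of that on the IMQ array for PDE4B, 97.0% and 84.3% for ADORA2A probes 2 and 1, and 88.7% and 83.0% for CREM probes 2 and 1. It was smaller for PDE4D probe 1 (49.1%) and PDE4A probe 2 (49.4%), and was 86.2% for PDE4A probe 3. The fall was 105% of the IMQ value for VIPR1 and 124% for ADORA3. These shares rest on the deposited scaling. Over the other scalings and normexp, IMQ+X minus IMQ ran from -0.07 to 0.40 for VIPR1 and from -0.16 to 0.09 for CREM probe 1. For ADORA2A probes 1 and 2 it ran from -0.17 to 0.15 and from -0.11 to 0.14. Whether these probes lay nearer to Ctrl in IMQ+X than in IMQ thus depends on the setting. The other probes named here kept their sign, with ADORA3 from -0.32 to -0.07. On a linear scale, PDE4B was still 13.9-fold above Ctrl, ADORA2A probe 2 was 7.70-fold above it, and VIPR1 was 12.5-fold below. The smallest IMQ+X against Ctrl difference past 2-fold was that of CREM probe 1 with 1.06, and the nearest under it was PDE4A probe 2 with 0.66.

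**Figure D3:**
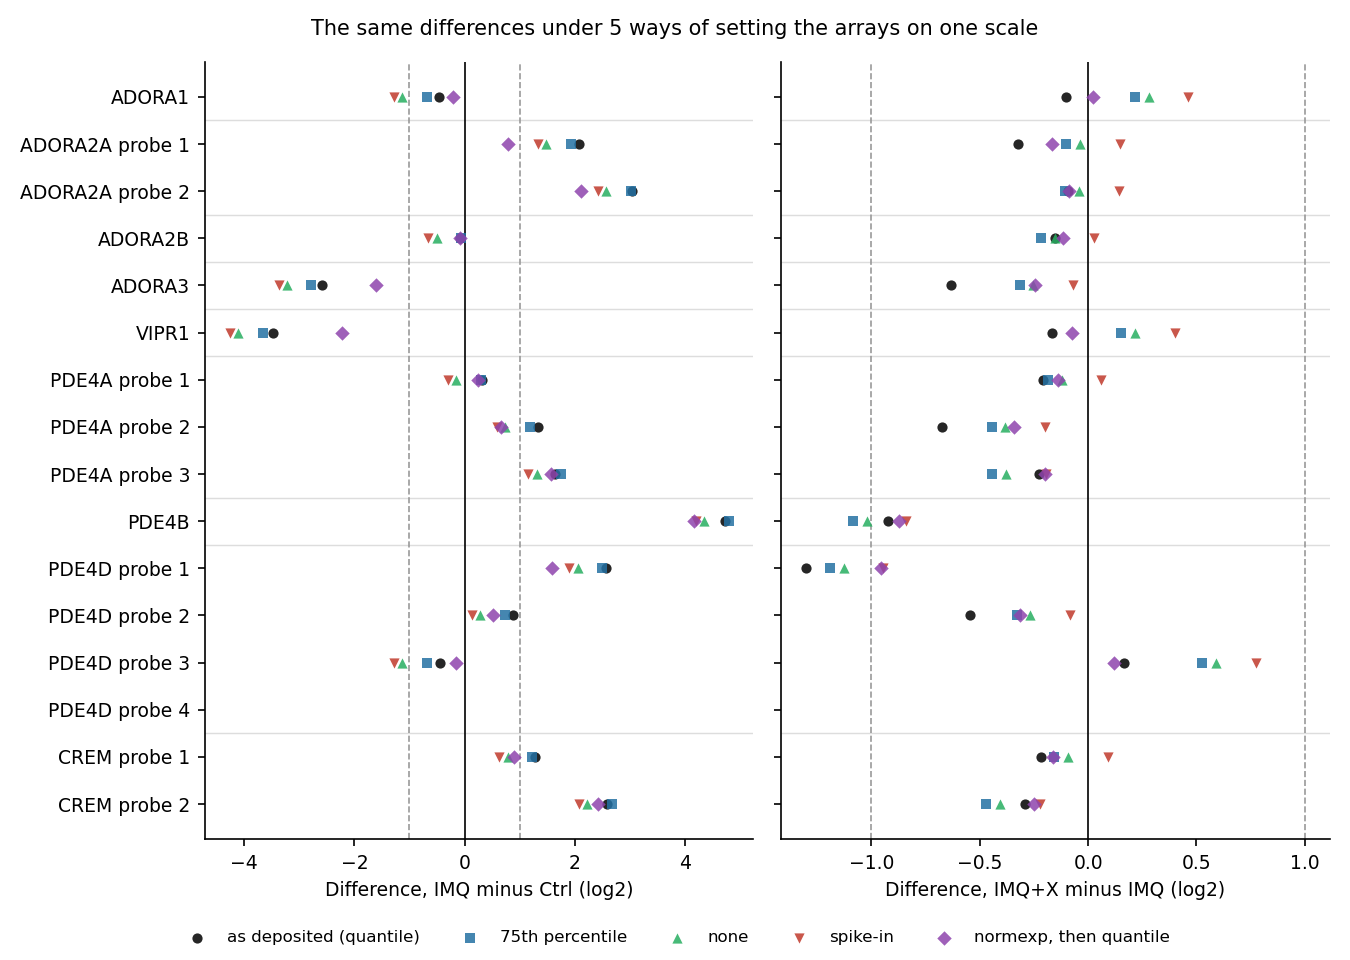
Log2 differences of the member probes under 5 ways of setting the arrays on 1 scale, for IMQ minus Ctrl (left) and IMQ+X minus IMQ (right), with dashed lines at 2-fold. On the left all members past 2-fold keep their side of 0, with PDE4B from 4.17 to 4.79, and PDE4A probe 1 is on both sides. On the right several probes are on both sides of 0.

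The scaling matters because the choice moved the whole distribution. The median IMQ against Ctrl difference of all probes was -0.51 without normalization between arrays and -0.66 with spike-in scaling, and that of IMQ+X against IMQ was 0.25 with spike-in scaling. For IMQ+X against Ctrl it was -0.33 and -0.29 under the same settings. Under quantile normalization 1771 probes were higher and 1431 lower after IMQ, against 591 higher and 9855 lower with spike-in scaling. For IMQ+X against IMQ, 445 were higher and 533 lower, against 3174 higher and 146 lower. Relative to those shifts, ADORA2A probe 2 with 2.42 and PDE4B with 4.18 remained above and ADORA3 with -3.37 and VIPR1 with -4.26 remained below the median of all probes for IMQ against Ctrl under spike-in scaling.

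The other genes of the pathway were read from lists, each gene by its brightest probe. Over the 19113 genes compared between IMQ and Ctrl, 4.31% were higher and 4.6% were lower, with a median of -0.03. Of 16 other Gs-coupled and Gi-coupled receptors, 1 was higher and 2 were lower, with a median of -0.01, and 4 were lower with spike-in scaling with a median of -0.64. Of the lower ones, S1PR1, a receptor for sphingosine 1-phosphate, read 6.69 on the Ctrl array and was not well above background on the others, which puts it at least 4.34-fold lower after IMQ. Its log2 bound of -2.12 ran from -2.95 to -1.09 over the other scalings and normexp. HCAR3, a Gi-coupled receptor of hydroxy fatty acids, went the other way with 6.80, 9.04 and 8.30 in Ctrl, IMQ and IMQ+X.

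Of 16 G proteins and adenylyl cyclases compared, 0 were higher and 2 were lower, with a median of -0.11, and the count of lower genes was 4 with spike-in scaling and 1 with normexp. Both were cyclases, which make cAMP, namely ADCY7 with a log2 difference of -2.20 and ADCY6 with -1.29, which came as high as -0.93, under 2-fold, over the other scalings and normexp. GNAI1, an inhibitory alpha subunit, changed by -0.33 after IMQ and was at -1.18 in IMQ+X against Ctrl (-1.46 to -0.66 over the other scalings and normexp). Of 22 kinase A, EPAC and anchoring genes, 0 were higher and 1 was lower, and the median was -0.03. Without normalization 5 were lower with a median of -0.57, and with spike-in scaling 5 were lower with a median of -0.72. The 1 gene as reported was PRKAR2B, a regulatory subunit of protein kinase A, with -1.32 on the brighter of its 2 probes and -1.14 on the other. PKIB, an inhibitor of the kinase, and AKAP1, an anchoring protein, were past 2-fold in IMQ+X against Ctrl, with -1.07 and -1.06, where 3.43% of 19740 genes were higher and 6.11% were lower. After IMQ they differed by -0.67 and -0.79, and over the other scalings and normexp these values reached -1.21 and -1.30. The dimmer probe of AKAP1 stayed under 2-fold, at -0.69 in IMQ+X against Ctrl and -0.57 after IMQ.

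Of 16 other phosphodiesterases compared, 2 were higher and 0 were lower, with a median of 0.29 that turned to -0.37 with spike-in scaling, where 1 was higher and 3 were lower. PDE8A, which degrades cAMP, rose by 1.22 (0.69 with spike-in scaling). PDE4DIP, a protein that binds PDE4D at the Golgi and centrosome and is no phosphodiesterase itself, rose by 3.07 on its brightest probe, with the 10 of its 11 probes that could be compared spread from 0.38 to 3.07. Among 12 CREB family members and coactivators, 2 were higher and 0 lower, with a median of 0.34 that turned to -0.26 with spike-in scaling. They were SIK1 with 1.93 and SIK3 with 1.61, kinases that hold the CREB coactivators out of the nucleus. In the list for adenosine itself, 18 genes were compared, 1 was higher and 1 was lower, with a median of -0.06. Without normalization 5 were lower with a median of -0.51, and with spike-in scaling 6 were lower with a median of -0.66. AMPD3, which deaminates AMP, rose by 2.01, and SLC29A1, the nucleoside transporter ENT1, fell by 1.67. ACP3, a phosphatase that can make adenosine from AMP, changed by -0.97 after IMQ and was at -1.17 in IMQ+X against Ctrl. Its dimmer probe was at -1.10 and -1.80 in the same comparisons.

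**Figure D4:**
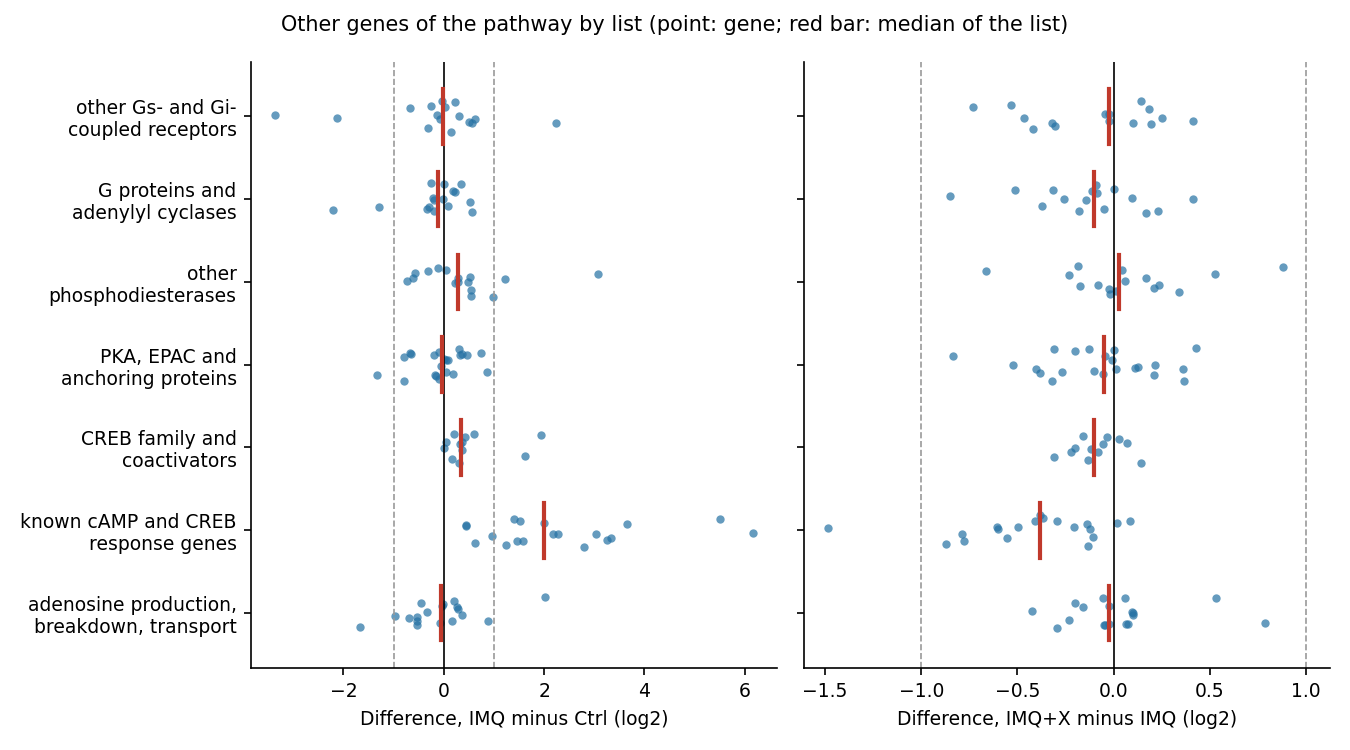
Log2 difference of each gene in 7 lists of the pathway, read from its brightest probe, for IMQ minus Ctrl (left) and IMQ+X minus IMQ (right), with a red bar at the median of each list and dashed lines at 2-fold. The response genes lie to the right after IMQ, with a median of 2.01, and the other medians lie between -0.11 and 0.34. All lists were chosen with earlier results of these data known.

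Known cAMP and CREB response genes were mostly higher after IMQ. Of the 19 compared, 15 were at least 2-fold higher and 0 were lower, with a median of 2.01, and with spike-in scaling 11 were higher with a median of 1.18. Over all genes compared, 4.31% were higher and 4.6% were lower. The list was chosen with earlier results of these data known, so nothing is read from its share. The largest differences were those of the chemokine CXCL8 (6.16), the nuclear receptor NR4A3 (5.50, and 1.64 on its other probe), the phosphatase DUSP1 (3.65) and the growth factor AREG (3.33). Most of these genes are also textbook targets of NF-κB and MAPK signaling downstream of Toll-like receptors, and the list does not set cAMP apart from those routes. Between IMQ+X and IMQ, 0 of the 19 were higher and 1 was lower, with a median of -0.38, where 0.719% of 19049 genes were higher and 0.913% were lower with a median of -0.02. The 1 lower gene, named after its value was seen, was NR4A1. It was well above background on the IMQ array alone, which puts it at least 2.80-fold lower in IMQ+X. That bound depends on the scaling, with log2 differences from -1.13 to -0.54 over the other scalings and normexp, so the call was lost under some of them. The count of lower genes was 2 with 75th percentile scaling and 0 with spike-in scaling and with normexp.

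Genes with the most similar pair of differences (IMQ minus Ctrl and IMQ+X minus IMQ) were sought among 18255 genes well above background on all 3 arrays, by Euclidean distance on the log2 scale. Nearest to PDE4B were the cytokine OSM at a distance of 0.12, INHBA, which encodes a subunit of activin A, at 0.28, and the cytokine IL11 at 0.44. OSM read 7.01, 11.85 and 10.96 in Ctrl, IMQ and IMQ+X, although its other probe moved by 0.31 after IMQ. Among the nearest to VIPR1 were CDCA7, a gene of the cell cycle, at 0.12 and the transcription factor E2F2 at 0.41. CDCA7 differed by -3.51 between IMQ and Ctrl, and its other probe by -0.49. The likeness rests on 2 differences of 3 arrays and describes no more than that.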

How the data were processed

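RNA from THP-1 macrophages was hybridized to 3 one-color arrays (Ctrl, IMQ, IMQ+X) of 58201 transcript probes. The authors deposited the scanner output (Feature Extraction 10.5.1.1) and a table of raw and quantile-normalized intensity per probe, and the normalized intensity was used here on the log2 scale. Columns of values left unused numbered 0. Groups were taken from the sample titles. Values of probes that the scanner did not mark as well above background were raised, where lower, to the lowest marked value on that array (log2 of 4.04 in Ctrl, 4.57 in IMQ and 4.08 in IMQ+X), and a comparison needed the mark on its brighter array. Repeating the normalization with limma 3.58.1 in R 4.3.3 moved the member values by at most 0.0228. Python 3.11.15, numpy 2.4.6, pandas 2.3.3 and matplotlib 3.10.9 were used otherwise. Only the 2-fold call between arrays was tested on simulated data, with spot noise, changes well past 2-fold and no dim probes. The normalization, scalings, lists and promoter search were not tested in that way. Outlier spots numbered 52 to 82 per array and saturated spots 0. Precision is limited by how few arrays there are.

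The members and the pathway lists were chosen with earlier results of these data known. Named genes were all members, up to 4 genes per list with the largest change past 2-fold (or the largest where none passed), and the 3 genes most like the member with the largest rise and that with the largest fall. Some genes that this rule or the marker lists would name are not reported here. CREM had entered the CREB list under its other name ICER and was taken out. The study's methods give 24 h of IMQ for its cell experiments, whereas the array titles give 4 h. Alternatives were other scalings (75th percentile, none, 10 spike-in probes), normexp background correction with offset 50, other filters, a 1.5-fold limit and the mean over probes.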

Additional observations from a re-analysis of the deposited data

How the results depend on the processing

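All differences of members past 2-fold kept their sign under every alternative (149 of 149 values), and 127 of these stayed past 2-fold. Both counts include settings that could hardly change these values. The other filters left them as they were, since each of these probes was well above background on all 3 arrays. Repeating the quantile normalization moved member values by at most 0.0228. The counts are thus larger than the number of values that could have moved. Of all 325 member values, 16 turned sign, and each of those was under 2-fold as reported. After IMQ, 8 member probes were higher, and 5 were with normexp background correction. The 2 lower probes became 4 without normalization between arrays and 4 with spike-in scaling. For IMQ+X against IMQ, the 1 lower probe became 2 with 75th percentile scaling, 2 on unscaled arrays, 0 with spike-in scaling, 0 after normexp and 4 at a 1.5-fold limit. For IMQ+X against Ctrl, the 7 higher probes became 4 on unscaled arrays, 4 with spike-in scaling and 4 after normexp. Normexp with its offset shrinks the differences of dim probes by construction. For the other moves the cause was not tested. Over all probes, the 1771 higher and 1431 lower after IMQ became 730 and 6668 on unscaled arrays, 591 and 9855 on spike-in scaled ones, 729 and 714 after normexp, 3751 and 3853 with no filter on dim probes, and 4601 and 4338 at 1.5-fold. The 445 higher and 533 lower in IMQ+X against IMQ became 1306 and 272 with 75th percentile scaling, 1682 and 231 on unscaled arrays, 3174 and 146 on spike-in scaled ones, 22 and 38 after normexp, 2491 and 2229 with no filter, 287 and 304 when both arrays had to be above background, and 2548 and 2440 at 1.5-fold. The 1348 higher and 2145 lower in IMQ+X against Ctrl became 672 and 4510 on unscaled arrays, 721 and 4171 on spike-in scaled ones, 647 and 982 after normexp, 3059 and 3828 with no filter, and 4270 and 5206 at 1.5-fold. With the mean over all probes, the IMQ difference was 2.56 for ADORA2A, 1.09 for PDE4A, 0.998 for PDE4D and 1.93 for CREM. No paired analysis was possible because there was 1 array per condition, and for the same reason no array could be left out. A slide block was not run, as all arrays lay on 1 slide. Brightness limits the dim probes, since the median SD between repeated spots was 0.21 at log2 values from 5 to 6 and 0.05 from 10 to 11.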
